A study of Mus musculus with 2 samples.

Results

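The regions described here are the CTCF peaks at bidirectional promoters of protein-coding genes in the mouse embryonic limb. A divergent pair was taken as 2 protein-coding genes on opposite strands that point away from each other, with the first transcription start sites (TSSs) of their GENCODE M21 annotation at most 1 kb apart. A peak belonged to the set when its summit, the base of highest signal, lay within 1 kb of both TSSs. This held for 306 of the 49970 peaks of the optimal list, 48806 of which lie on the 19 autosomes used. The 306 peaks fell at 275 of 734 such pairs, and 8 of them reached more than 1 annotated pair. They were set beside 5151 promoter peaks of single genes, which are coding genes with no other coding TSS within 1 kb.

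CTCF is a zinc finger protein that binds a long, directional DNA motif, blocks the spread of enhancer activity across insulators and, together with cohesin, anchors chromatin loops. A bidirectional promoter serves a head-to-head gene pair from 1 short stretch of DNA. Such promoters usually lie in CpG islands, often lack a TATA box and are common among housekeeping genes of DNA repair, RNA processing and mitochondria.

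The study profiled CTCF by chromatin immunoprecipitation and sequencing (ChIP-seq) in limb tissue of B6NCrl mouse embryos at 14.5 days of development. It holds 1 group of 2 libraries, replicate 1 and replicate 2, with no other genotype, treatment or age. Per the labels, both came from the same pool of pulverised limbs of male and female embryos from several dissections. All limb cell types are therefore mixed in each value. The labels also call the libraries biological replicates 1 and 2, but with 1 pool the spread between them may be technical.

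At some divergent pairs with a strong peak between the TSSs, the whole stretch that separates the genes can be printed. The 4 stretches below are shown because a CTCF motif, in capitals, lies between the TSSs. The stretch at Nae1/Car7 is 53 bp long, and the others are longer than the median distance of 128 bp between the TSSs of a pair. They are the forward strand of GRCm38.p6 (the assembly also called mm10), 5′ to 3′, from the TSS of the minus-strand gene to that of the plus-strand gene. Nae1/Car7 is chr8:104534637-104534689, Trove2/Uchl5 is chr1:143777068-143777272, Vezt/Fgd6 is chr10:94035817-94036001 and Nop14/Grk4 is chr5:34660148-34660379. The motif reads on the plus strand in the first 3 and on the minus strand at Nop14/Grk4. Vezt/Fgd6 and Nop14/Grk4 were chosen after their values were seen.
Nae1/Car7: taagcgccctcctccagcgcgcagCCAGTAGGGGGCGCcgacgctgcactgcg
Trove2/Uchl5: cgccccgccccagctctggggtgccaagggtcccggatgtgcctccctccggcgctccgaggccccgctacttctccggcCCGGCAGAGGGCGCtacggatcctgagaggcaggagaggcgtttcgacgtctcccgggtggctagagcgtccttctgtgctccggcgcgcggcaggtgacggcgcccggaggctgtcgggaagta
Vezt/Fgd6: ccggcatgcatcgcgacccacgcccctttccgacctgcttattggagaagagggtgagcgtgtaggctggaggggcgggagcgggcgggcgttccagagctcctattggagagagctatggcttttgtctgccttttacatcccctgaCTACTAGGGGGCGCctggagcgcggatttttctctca
Nop14/Grk4: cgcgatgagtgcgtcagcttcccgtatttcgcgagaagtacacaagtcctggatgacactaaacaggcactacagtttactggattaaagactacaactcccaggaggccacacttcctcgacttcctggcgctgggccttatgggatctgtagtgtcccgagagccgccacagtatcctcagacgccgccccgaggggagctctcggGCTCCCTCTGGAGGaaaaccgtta

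The next 4 sequences are the bases within 50 bp of the summit, again on the forward strand with the motif in capitals. Wrap53/Trp53 (chr11:69579426-69579526) and Dtl/Ints7 (chr1:191575950-191576050) carried the 2 strongest peaks, and both summits lie in an intron of 1 gene of the pair. Abca17/Abca3 (chr17:24351854-24351954) had a strong peak between TSSs 882 bp apart. Gm10644/Asf1b (chr8:83955272-83955372) was the strongest peak with no motif, its best match scoring 6.86 against a threshold of 7.43, so its sequence has no capitals. The motif lies on the plus strand at Wrap53/Trp53 and on the minus strand at the others that have one.
Wrap53/Trp53: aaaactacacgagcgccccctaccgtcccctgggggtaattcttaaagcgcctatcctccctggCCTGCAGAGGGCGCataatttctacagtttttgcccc
Dtl/Ints7: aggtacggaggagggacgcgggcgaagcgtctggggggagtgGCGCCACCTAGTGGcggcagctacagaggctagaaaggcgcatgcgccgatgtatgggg
Abca17/Abca3: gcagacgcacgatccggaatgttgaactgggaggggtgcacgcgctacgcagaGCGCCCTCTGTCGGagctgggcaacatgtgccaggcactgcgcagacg
Gm10644/Asf1b: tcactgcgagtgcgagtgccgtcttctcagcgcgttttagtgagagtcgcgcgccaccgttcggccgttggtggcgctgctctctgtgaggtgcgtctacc

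The strongest peaks of the set were found at genes of varied roles. The value given per peak is the signal that the authors deposited, first in the optimal list, which draws on both libraries, and then in the full list of each replicate. The Wrap53/Trp53 peak (chromosome 11, summit at 69579476) had a signal of 414.0 in the optimal list, 202.9 in replicate 1 and 212.5 in replicate 2. Wrap53 encodes a telomerase and Cajal body factor, and Trp53 the p53 tumour suppressor. The summit lies 779 bp inside Wrap53, in an intron, although the TSSs are only 104 bp apart. Dtl/Ints7 (chromosome 1, summit at 191576000) had 400.3, with 219.6 in replicate 1 and 180.3 in replicate 2, at an intron of Ints7. Dtl is a substrate receptor of a ubiquitin ligase that acts in S phase, and Ints7 is a subunit of the Integrator complex. Ddias/Prcp (chromosome 7, summit at 92874531) had 365.8, with 183.1 and 182.1 in the 2 libraries, 61 bp inside Prcp, a lysosomal peptidase. Tctn3/Entpd1 (chromosome 19, summit at 40612417) had 347.2, with 174.1 and 170.5, in an untranslated exon of Entpd1, the ectonucleotidase CD39, while Tctn3 is a protein of the ciliary transition zone. In deposited units the mean was 207.7 ± 6.78 at Wrap53/Trp53 and 199.9 ± 27.8 at Dtl/Ints7 (SD, n = 2 libraries of 1 pool). Each list has its own scale, so these spreads also hold the difference in scale. Scaled by the median of each list over the optimal peaks, the log2 ratio of replicate 1 over replicate 2 was -0.140 at Wrap53/Trp53 and 0.211 at Dtl/Ints7. It was -0.0655 at Ddias/Prcp and -0.0442 at Tctn3/Entpd1.

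The next peaks in rank include 4 that lie between the TSSs. At Nae1/Car7 (chromosome 8, summit at 104534668) the signal was 316.2, with 160.5 in replicate 1 and 156.6 in replicate 2. Nae1 is a subunit of the enzyme that activates NEDD8, and Car7 is a carbonic anhydrase. Their TSSs are 52 bp apart and the summit lies 5 bp from the midpoint, inside the first sequence printed above. Abca17/Abca3 (chromosome 17, summit at 24351904) had 305.8, with 157.3 and 149.4 in the libraries. Its TSSs are 882 bp apart and the summit lies 46 bp from that of Abca3, the lipid transporter of lung surfactant. Gm10644/Asf1b (chromosome 8, summit at 83955322) had 277.6, with 151.8 and 126.5, next to the histone chaperone gene Asf1b. Trove2/Uchl5 (chromosome 1, summit at 143777158) had 262.9, with 148.1 and 115.6. Trove2 binds misfolded small RNAs, and Uchl5 is a deubiquitinase of the proteasome.

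The other 2 of the 10 strongest peaks lay inside a gene. Mrps12/Sars2 (chromosome 7, summit at 28742245) had 279.6, with 150.1 in replicate 1 and 128.9 in replicate 2, in a coding exon of Sars2. Mrps12 is a protein of the small mitochondrial ribosome subunit and Sars2 the mitochondrial seryl-tRNA synthetase, so both genes of this pair act in translation inside mitochondria. Polr3a/Rps24 (chromosome 14, summit at 24487137) had 267.9, with 141.3 and 127.9, only 12 bp inside Rps24. Polr3a is the largest subunit of RNA polymerase III and Rps24 a cytosolic ribosomal protein. Of the 10 strongest peaks, 9 carried the motif.

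The 4 weakest peaks of the set each had a second summit of the optimal list close by. Plcd3/Acbd4 had a signal of 7.46 with the next summit 236 bp away, and Slc7a6os/Prmt7 had 6.10 with the next at 200 bp. Odf3l1/Cspg4 had 5.73 with the next at 204 bp, and Sbds/Tyw1 had 5.41 with the next at 207 bp. None of the 4 carried the motif, and only Sbds/Tyw1 had a summit in a replicate list, at 5.09 in replicate 1. Over all the set, 16 of 306 peaks (5.23%) had another summit within 250 bp, against 187 of 5151 (3.63%) at single promoters.

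Divergent pairs carried a CTCF peak more often than single genes did. A summit lay within 1 kb of both TSSs at 275 of 734 pairs, 37.5% (34.0 to 41.1%), against 4519 of 18126 single genes, 24.9% (24.3 to 25.6%). Intervals throughout are exact 95% binomial ones and cover counting error alone, since promoters of 1 pool of tissue are not replicates. No test between the classes of promoters was made, because there is only 1 group of samples. Of all 20807 autosomal coding genes, 26.9% had a summit within 1 kb of the first TSS. The share was 39.7% (575 of 1448) for genes in pairs and 25.1% (4545 of 18126) for single genes. In windows of equal size the order was the same. Within 250 bp of the midpoint, 21.9% of pairs had a summit, against 13.6% of single genes within 250 bp of the TSS. Within 500 bp these shares were 31.7% for pairs and 19.1% for single genes.

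The higher share at pairs lay in weaker peaks and in peaks without the motif. Peaks with the motif were present at 127 of 734 pairs, 17.3% (14.6 to 20.2%), against 15.3% (14.7 to 15.8%) of single genes. With the stricter score that 1% of flanking windows reach, the order turned, with 4.77% (3.34 to 6.57%) of pairs and 7.61% (7.23 to 8.01%) of single genes. Peaks without it were present at 166 pairs, 22.6% (19.6 to 25.8%), against 11.2% (10.8 to 11.7%) of single genes. Counting the stronger 50% of all peaks alone, 12.8% (10.5 to 15.4%) of pairs and 12.1% (11.7 to 12.6%) of single genes had one. For the weaker 50% the shares were 26.4% (23.3 to 29.8%) for pairs and 14.2% (13.7 to 14.8%) for single genes. The intervals of pairs and single genes overlap for the stronger peaks and lie apart for the weaker ones and for those without the motif.

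CpG content moved with this difference. A promoter was counted as CpG-rich where the 1 kb around it had over 50% GC and a CpG frequency over 0.6 of that expected from its bases, a split made after the shares were seen. This held for 617 of 734 pairs (84.1%) and 7430 of 18126 single genes (41.0%). Among CpG-rich promoters, 243 of 617 pairs had a peak, 39.4% (35.5 to 43.4%), against 3057 of 7430 single genes, 41.1% (40.0 to 42.3%). Among the other promoters, 32 of 117 pairs had one, 27.4% (19.5 to 36.4%), against 13.7% (13.0 to 14.3%) of single genes. In both comparisons a summit had to lie within 1 kb of both TSSs of a pair but of only 1 TSS of a single gene. Pairs thus had the smaller window, and windows of equal size were not compared after this split. Within CpG-rich promoters, peaks with the motif were at 18.0% (15.0 to 21.3%) of pairs and 24.2% (23.2 to 25.2%) of single genes. Those without it were at 24.0% (20.7 to 27.6%) of pairs and 19.9% (19.03 to 20.86%) of single genes.

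**Figure D1:**
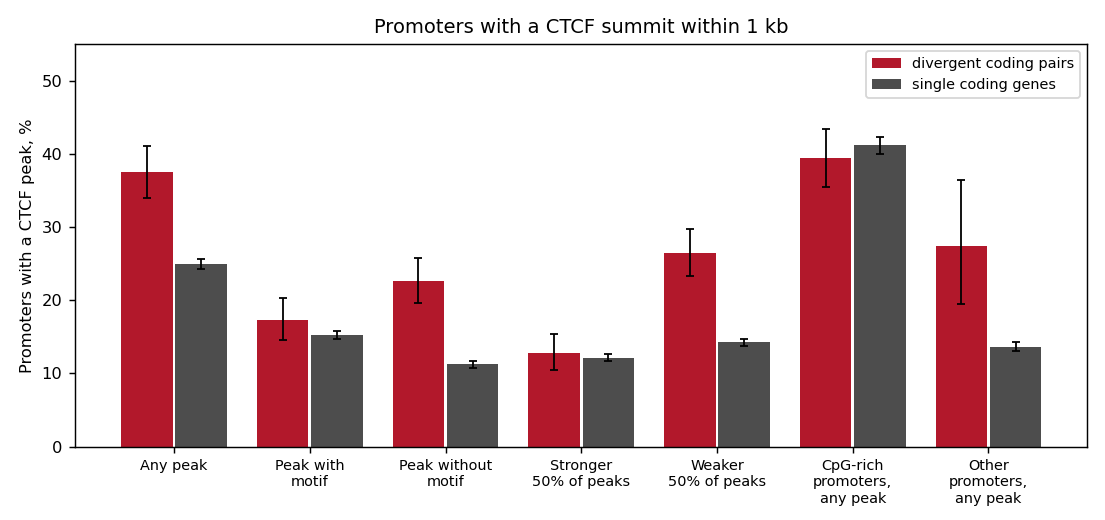
Share of promoters with a CTCF summit within 1 kb, in percent, for divergent coding pairs (red, left bar) and single coding genes (grey, right bar), with exact 95% intervals. Any peak was present at 37.5% of pairs and 24.9% of single genes, while among CpG-rich promoters 39.4% of pairs and 41.1% of single genes had one. A summit had to lie within 1 kb of both TSSs of a pair, so pairs had the smaller window.

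Most occupied pairs had 1 peak. There were 241 pairs with 1 peak, 29 with 2 and 5 with 3, which was the most at any pair. Hdlbp/Sept2 accounts for 2 of those 5, since the pair is annotated from more than 1 gene entry. Taking pairs that share a gene as 1, there were 714 groups of pairs and 269 of them (37.7%) had a peak. At Gm10447/Shroom1 (chromosome 11) the 3 peaks had signals of 92.7 in Gm10447, 27.9 in an untranslated exon of Shroom1 and 34.3 in an intron of Shroom1, an actin-binding protein. At Uqcrh/Lrrc41 (chromosome 4) they were 44.3 in an intron of Uqcrh, 21.8 between the TSSs and 49.7 in an intron of Lrrc41. Uqcrh is the hinge protein of respiratory complex III. At Hdlbp/Sept2 (chromosome 1) they were 48.3 and 31.5 inside Hdlbp, an RNA-binding protein, and 28.2 inside Sept2, a septin of the cytoskeleton. The last of these had a signal of 16.1 in replicate 2 and no summit in the replicate 1 list.

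The summit lay strictly between the TSSs at 63 of 306 peaks, 20.6% (16.2 to 25.6%). The other 243 lay inside a gene of the pair, 127 of them in the plus-strand gene. The stretch between the TSSs is short, with a median of 128 bp over all pairs, and makes up 10.6% of the DNA in which a summit could belong to the set. Per kilobase there were 0.448 summits between the TSSs and 0.205 inside the genes. For single genes the densities were 0.155 upstream of the TSS and 0.129 inside the gene, over windows that reach farther from the TSS. Close to the TSS they were higher, with 0.359 per kilobase in the first 250 bp upstream of single genes. In the first 250 bp inside the gene there were 0.406 summits per kilobase for genes in pairs and 0.196 for single genes. From 500 to 1000 bp inside, the densities were 0.104 for genes in pairs and 0.0927 for single genes. In the first 100 bp upstream of single genes the density was 0.480, while the 63 summits between the TSSs give an exact 95% counting interval of 0.344 to 0.573. The density of all summits between the TSSs, with and without the motif together, thus could not be told from that just upstream of single genes. In the first 250 bp inside the gene the intervals lay apart, at 0.343 to 0.477 for genes in pairs and 0.183 to 0.209 for single genes. The stretch inside 1 gene of a pair can also lie close upstream of its partner, so these places are not alike. None of these densities was split by CpG content, and 84.1% of pairs but 41.0% of single genes were CpG-rich.

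Peaks with and without the motif were spread differently over these places. Between the TSSs there were 0.164 (0.104 to 0.246) summits with the motif and 0.285 (0.203 to 0.388) without it per kilobase. In the first 250 bp upstream of single genes there were 0.218 (0.205 to 0.232) with the motif and 0.141 (0.130 to 0.152) without it. In the first 100 bp upstream there were 0.308 (0.283 to 0.335) with the motif and 0.172 (0.153 to 0.192) without it. Both intervals at 100 bp lay apart from those between the TSSs, lower there with the motif and higher without it. In the first 250 bp inside genes the densities with the motif were 0.182 for genes in pairs and 0.0878 for single genes, and those without it were 0.224 for genes in pairs and 0.108 for single genes. The limits given above for stretches inside genes and for CpG content apply here too.

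**Figure D2:**
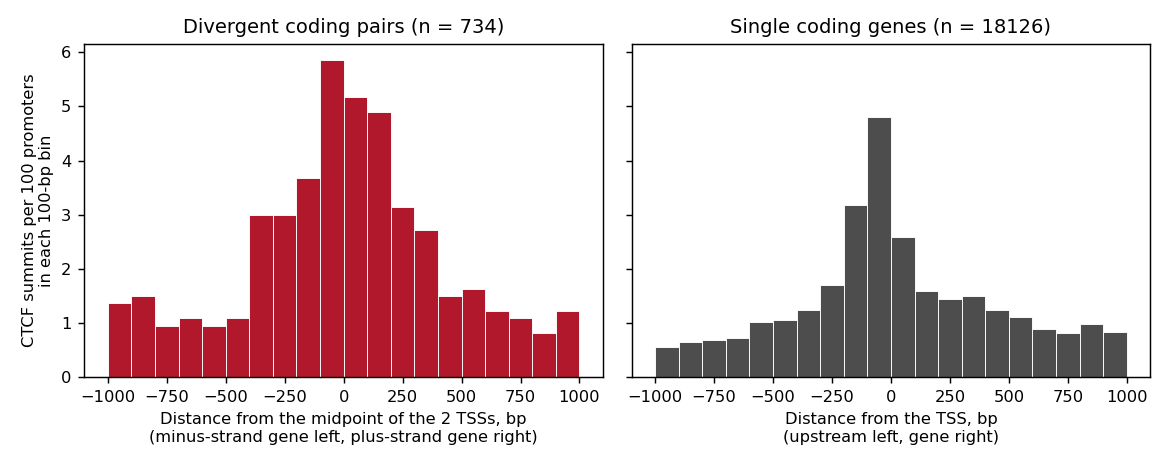
CTCF summits per 100 promoters in bins of 100 bp, by distance in bp from the midpoint between the TSSs of a pair (left) or from the TSS of a single gene (right, upstream to the left). Pairs reached 5.86 in the bin left of the midpoint and 5.18 in the bin right of it, and single genes reached 4.80 in the bin just upstream of the TSS.

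The share of summits between the TSSs moved with the distance between them. With TSSs at most 100 bp apart, 14 of 132 summits (10.6%) were between them, in 2.87% of the window. With TSSs over 100 and up to 200 bp apart it was 10 of 81 (12.3%) in 7.83% of the window. From there to 300 bp it was 9 of 37 (24.3%) in 14.1%, and from there to 500 bp 19 of 37 (51.4%) in 22.7%. With TSSs over 500 bp apart, 11 of 19 (57.9%) were between them, in 55.4% of the window. The share of summits was above the share of the window in each class of distance, by little in the widest one. Its interval lay above the window share up to 100 bp (5.92 to 17.2%) and from 300 to 500 bp (34.4 to 68.1%). In the other classes the interval took in the window share. It was 6.08 to 21.5% from 100 to 200 bp, 11.8 to 41.2% from 200 to 300 bp and 33.5 to 79.7% over 500 bp. The share of pairs with a peak in these 5 classes was 37.9%, 36.0%, 34.4%, 54.7% and 27.9%, from the closest TSSs to the farthest. The class from 300 to 500 bp, with 35 of 64 pairs (41.7 to 67.2%), was highest, and the widest, with 19 of 68 (17.7 to 40.1%), was lowest. Pairs with a peak had a median distance of 130 bp and those without one 127 bp.

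**Figure D3:**
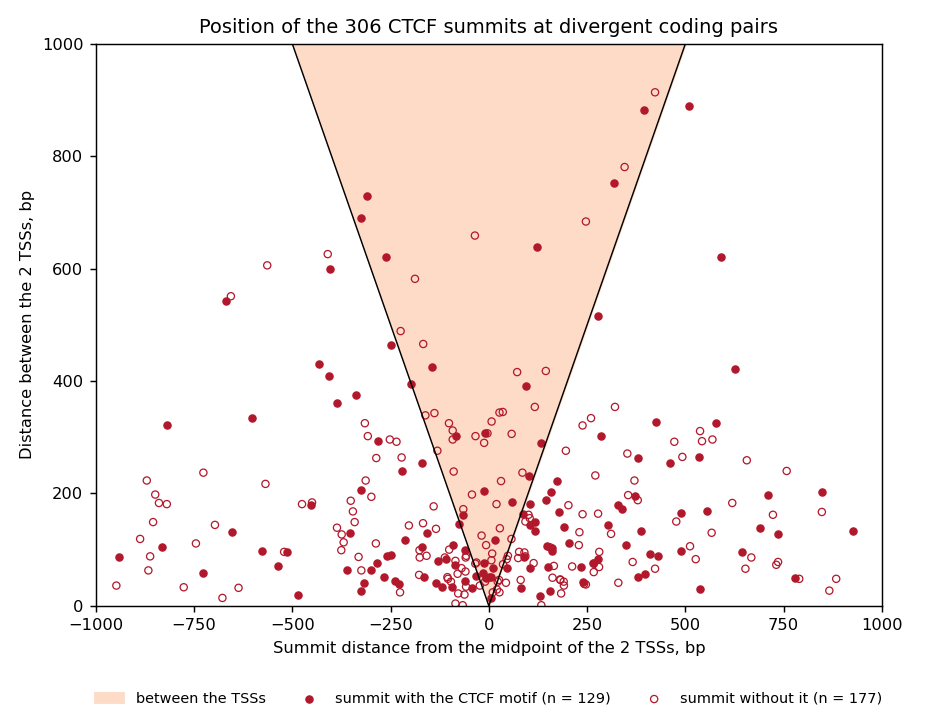
Each point is 1 of the 306 summits, placed by its distance in bp from the midpoint between the TSSs and by the distance in bp between the TSSs. The shaded wedge is the stretch between the TSSs and holds 63 summits, filled points carry the CTCF motif (129) and open ones do not (177).

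Summits of the set lay nearer to a TSS than those of single promoters. The median distance to the nearer TSS was 142 bp (quartiles 51.25 to 319.25 bp), against 263 bp (95 to 551.5 bp) to the TSS of single genes. Of the set, 40.2% (34.7 to 45.9%) lay within 100 bp of a TSS, against 26.0% (24.8 to 27.2%) of single-promoter peaks. A pair offers 2 TSSs to be near to, so these distances are not measured alike. By annotation, 94 summits (30.7%) fell in an untranslated exon, 86 (28.1%) in an intron, 42 (13.7%) in a coding exon, 24 (7.84%) in another exon of a coding gene and 60 (19.6%) outside coding genes. At single promoters 50.6% lay outside coding genes, 20.8% in an intron and 18.5% in an untranslated exon.

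The peaks of the set had a lower median signal than those of single promoters, and the gap depended on the place of the summit. Their median signal was 37.4 (quartiles 23.1 to 72.4), against 49.7 (27.5 to 120.6) at single promoters and 58.6 over all optimal peaks of the autosomes. In replicate 1 the medians were 19.9 for the set and 27.1 for single promoters, and in replicate 2 they were 18.2 for the set and 25.6 for single promoters. The ratio of medians was 0.754 in the optimal list, 0.735 in replicate 1 and 0.712 in replicate 2. Inside the gene, where 79.4% of the set and 45.5% of single-promoter summits lay, the medians were close, at 37.4 for the set and 39.3 for single promoters. Between the TSSs the median was 37.9, against 64.7 upstream of single genes. Of the set, 11 peaks (3.59%) were in the strongest decile of the optimal list, against 8.95% of single-promoter peaks. In the weakest decile were 56 (18.3%) of the set and 13.5% of single-promoter peaks.

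Signal also differed with the motif and with the place of the summit. Peaks of the set with the motif had a median of 61.8 and those without it 29.0, against 76.7 with it and 33.3 without it at single promoters. Between the TSSs the 23 peaks with the motif had a median of 110.8 and the 40 without it 27.2. In replicate 1 these medians were 61.3 with the motif and 14.0 without it, and in replicate 2 they were 49.1 with it and 14.6 without it. Inside the genes the 106 peaks with the motif had a median of 55.2 and the 137 without it 29.1. For single genes with the motif the medians were 99.7 upstream and 56.9 inside the gene, so that upstream or between places held the stronger motif-bearing peaks in both classes.

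The CTCF motif was less frequent in the set. The matrix for the motif, 14 bases long, was built from the strongest peaks of the odd-numbered autosomes, and a hit had to lie within 50 bp of the summit at a score that 5% of windows 1 kb away reach. A hit was present at 129 of 306 peaks, 42.2% (36.6 to 47.9%), against 57.3% (56.0 to 58.7%) at single promoters and 80.4% of all optimal peaks. On even-numbered autosomes, which did not enter the matrix, the shares were 37.3% for the set, 56.4% for single promoters and 80.1% for all peaks. Windows 1 kb away from the summits held a hit in 3.76% (2.40 to 5.59%) of cases for the set and 5.90% (5.45 to 6.37%) for single promoters. Between the TSSs 36.5% (23 of 63) had a hit and inside the genes 43.6% (106 of 243), with intervals that overlap. At single promoters the share was 63.3% upstream and 50.2% inside the gene, so the gap to the set was smaller inside genes than between the TSSs. A hit is a match of letters and does not by itself show a bound site.

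Among peaks of like strength this gap varied with the decile. In the stronger 50% of all peaks the motif share was 72.3% of the set (68 of 94) and 75.9% of single-promoter peaks. In the sixth decile it was 28.9% (15.4 to 45.9%) in the set and 56.7% (52.4 to 60.9%) at single promoters. In the weakest decile it was 14.3% (6.38 to 26.2%) in the set and 30.8% (27.4 to 34.4%) at single promoters. In the other 8 deciles the intervals of both classes overlapped. In the fifth of them the set had the higher share, 72.4% (52.8 to 87.3%) against 60.4% (56.1 to 64.5%) at single promoters. The shares were nearly equal in the strongest decile, at 90.9% of the set and 91.1% of single-promoter peaks.

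**Figure D4:**
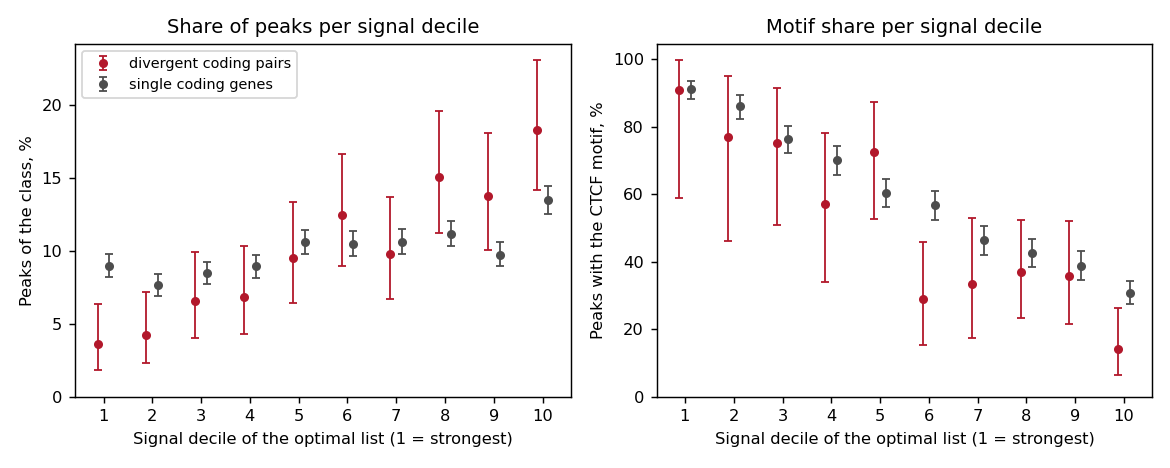
Left, share of the peaks of each class in each signal decile of the optimal list, in percent; right, share of those peaks with the CTCF motif, in percent, with divergent pairs in red left of single genes in grey and exact 95% intervals. The share of the set grew toward the weak end, to 18.3% in the weakest decile, and its motif share was 90.9% in the strongest decile and 14.3% in the weakest.

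The motif has a direction, and its orientation was read against the genes. Between the TSSs it ran toward the nearer TSS in 11 of 23 peaks, 47.8% (26.8 to 69.4%). Inside the genes of pairs it was on the gene's own strand in 46 of 106, 43.4% (33.8 to 53.4%). Upstream of single genes it ran toward the TSS in 62.3% (59.96 to 64.52%) of 1778 peaks, and inside them it was on the gene's strand in 51.7% (48.8 to 54.6%). With 23 peaks the interval between the TSSs takes in both an even split and the value upstream of single genes.

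The sequence around the summits was rich in GC and CpG. Within 100 bp of the summit the median GC content was 63.2% (quartiles 58.2 to 67.7%) in the set, against 61.7% (54.2 to 67.2%) at single promoters and 49.8% over all peaks. The ratio of observed to expected CpG had a median of 0.785 in the set, 0.664 at single promoters and 0.233 over all peaks. Repeat-masked bases held 11 summits of the set (3.59%), 5.80% of single-promoter summits and 17.4% of all summits. Pairs with and without a peak were close at their midpoints, with a median GC content of 63.7% (57.2 to 68.7%) for pairs with a peak and 61.7% (54.98 to 68.66%) for those without. The CpG ratio was 0.861 for pairs with a peak and 0.864 for those without.

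Short words known from promoters were counted on both strands in the same windows and are descriptions of letters, not of bound factors. The longest run that any of them shares with the consensus of the CTCF matrix is 5 letters, at GGGCGG. The ETS word CCGGAAGT, bound by factors such as GABPA, was near 22 of 306 summits of the set, 7.19% (4.56 to 10.7%), against 2.68% (2.26 to 3.16%) at single promoters and 0.615% of all peaks. It was at 10.6% (8.49 to 13.1%) of all pair midpoints and 3.73% (3.46 to 4.02%) of single TSSs. Among midpoints it was at 10.2% (6.87 to 14.4%) of pairs with a peak and 10.9% (8.19 to 14.1%) of those without. The ETS word was thus more frequent at pairs than at single genes, with a like share at pairs with and without CTCF peaks.

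Pooled over all places of the summit, the other words were near similar shares of summits in both classes of promoters. Several differed between all pair midpoints and all single TSSs, where the windows are centred differently, as said above. The CCAAT word of NFY was near 20.9% of summits of the set, 19.3% of those of single promoters and 21.1% of all summits. At midpoints of all pairs it was at 37.9% (34.4 to 41.5%), against 27.7% (27.1 to 28.4%) of single TSSs. There GGGCGG was at 57.4% of pair midpoints and 38.8% of single TSSs, GCGCATGC at 5.99% of pair midpoints and 2.53% of single TSSs, and TGACGTCA at 4.36% of pair midpoints and 1.87% of single TSSs. TATAAA was at 3.68% of pair midpoints and 8.89% of single TSSs. Among promoters with a peak, GGGCGG was at 58.9% of pair midpoints and 58.6% of single TSSs. TATAAA was then at 3.27% of pair midpoints and 3.85% of single TSSs. For GCGCATGC the intervals overlapped, at 2.01 to 7.04% for pairs and 3.51 to 4.69% for single genes. They also overlapped for TGACGTCA, at 2.01 to 7.04% for pairs and 2.15 to 3.09% for single genes. CCAAT still differed, at 38.5% (32.8 to 44.6%) of pair midpoints and 25.4% (24.2 to 26.7%) of single TSSs. The GGGCGG word of SP factors was near 37.9% of summits of the set and 38.2% of those of single promoters, against 10.03% of all summits. By place, it was near 60.3% (47.2 to 72.4%) of summits between the TSSs and 37.5% (35.7 to 39.3%) of those upstream of single genes. Inside the gene it was near 32.1% for the set and 38.9% for single promoters. CCAAT was near 34.9% (23.3 to 48.0%) of summits between the TSSs and 21.9% (20.4 to 23.5%) of those upstream of single genes. Inside the gene CCAAT was near 17.3% for the set and 16.2% for single promoters. The NRF1 word GCGCATGC was near 2.61% of the set and 2.39% of single-promoter summits, and the YY1 word AAGATGGCG near 1.63% of the set and 0.951% of single-promoter summits. The CRE word TGACGTCA was near 0.980% of the set and 1.22% of single-promoter summits. TATAAA was near 2.61% of the set and 3.73% of single-promoter summits, against 8.32% of all summits. The ZNF143 word ACTACAATT was near 0 of 306 summits, which allows a share of up to 0.980% by the rule of 3 counts and 1.20% by the exact interval, and near 0.233% of single-promoter summits.

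Both libraries held most of the set. A summit within 100 bp among the strongest peaks of a replicate, as many as the optimal list has on the autosomes, was present in both replicates for 211 of 306 peaks, 69.0% (63.4 to 74.1%). This share was 76.8% (75.7 to 78.0%) at single promoters and 81.2% over all peaks. A further 29 peaks of the set were found in replicate 1 alone, 37 in replicate 2 alone and 29 in neither. All 94 peaks of the set in the stronger 50% were found in both. Among peaks of like strength the shares in both were close, with 90.0% of the set and 93.2% of single-promoter peaks in the seventh decile. In the eighth decile they were 78.3% of the set and 75.3% of single-promoter peaks, and in the ninth 38.1% of the set and 36.7% of single-promoter peaks. In the weakest decile they were 1.79% of the set and 1.01% of single-promoter peaks. That decile held 18.3% of the set and 13.5% of single-promoter peaks. The full lists lacked a summit for 17 peaks in replicate 1 and 15 in replicate 2.

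Where both libraries gave a value, the log2 ratio of replicate 1 over replicate 2, scaled by the median of each list over the optimal peaks, had an SD of 0.59 in the set. The SD was 0.56 at single promoters and 0.50 over all peaks. The largest ratios were 2.24 at Rad51ap1/D6Wsu163e, with signals of 20.8 in replicate 1 and 4.18 in replicate 2, 2.04 at Hadha/Hadhb (18.7 and 4.33) and 1.79 at 1110059G10Rik/Kif15 (13.0 and 3.58). Hadha and Hadhb encode both subunits of the mitochondrial trifunctional protein of fatty acid oxidation. The smallest were -2.41 at Mad1l1/Nudt1, with 3.63 in replicate 1 and 18.4 in replicate 2, -1.55 at Exosc1/Zdhhc16 (3.75 and 10.4) and -1.44 at Tmem209/Ssmem1 (5.42 and 14.0). All 6 had an optimal signal below the median of the set.

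**Figure D5:**
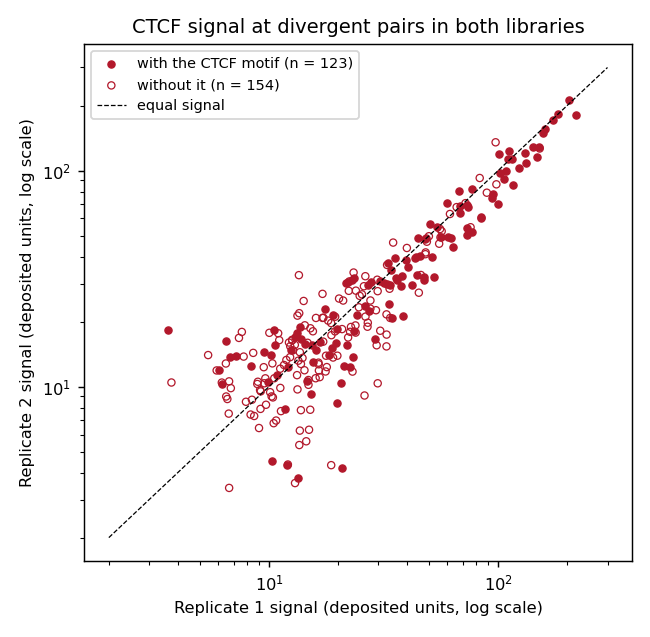
Signal of the peaks of the set in replicate 1 (horizontal) and replicate 2 (vertical), in deposited units on log axes, for the 277 peaks that have a value in each replicate list. Filled points carry the CTCF motif and open ones do not; the strongest peaks lie close to the dashed line of equal signal, and the scatter is wider among the weak ones.

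The pairs were then grouped by function, with lists chosen with earlier results of these data known, and read against the 37.5% of all pairs with a peak. DNA repair genes were in 32 pairs, of which 13 had a peak, 40.6% (23.7 to 59.4%). Pms1 was counted in 2 annotated pairs at 1 peak, and Dclre1b in 2 without a peak. The strongest was at Rad54l/Pomgnt1 (88.2, with 48.1 in replicate 1 and 41.0 in replicate 2), where Rad54l remodels chromatin in homologous recombination. Next was Hscb/Chek2, where Chek2 is a DNA damage checkpoint kinase. Its 2 peaks had 82.6 (45.7 and 40.3 in the libraries) and 46.5 (24.3 and 21.5). Osgep/Apex1, with the endonuclease of base excision repair, had no peak. Genes of DNA replication and the cell cycle were in 18 pairs, 5 with a peak, 27.8% (9.69 to 53.5%). Of these pairs, 2 share Rpa3 and had no peak. The strongest were Orc3/Rars2, at 58.7 (27.8 in replicate 1 and 30.4 in replicate 2), and Trmt6/Mcm8, at 46.95 (22.3 and 27.8). At Orc3/Rars2 the origin recognition subunit and the mitochondrial arginyl-tRNA synthetase start 13 bp apart with the summit between them. Abce1/Anapc10 had no peak.

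Mitochondrial genes were similar. Proteins of the mitochondrial ribosome were in 18 pairs, 7 with a peak, 38.9% (17.3 to 64.3%). Mrps12/Sars2, described above, was strongest, followed by Mrps18b/Ppp1r10 at 171.6 (94.0 in replicate 1 and 74.95 in replicate 2) in a coding exon of Mrps18b. Lrrc46/Mrpl10 had none. Genes of mitochondrial respiration and protein import were in 25 pairs, 10 with a peak, 40.0% (21.1 to 61.3%). Atp5c1/Kin had 109.0 (56.7 and 52.4) and Sdha/Ccdc127 had 53.3 (33.8 and 20.8). Atp5c1 is a subunit of ATP synthase and Sdha of succinate dehydrogenase. Atp5h/Kctd2 had none.

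Aminoacyl-tRNA synthetase genes were in 5 pairs, 4 with a peak, 80.0% (28.4 to 99.5%). Among them were Mrps12/Sars2, S100pbp/Yars and Orc3/Rars2, and Kars/Terf2ip was the one without. At S100pbp/Yars the signals were 75.5 (35.6 in replicate 1 and 39.4 in replicate 2) and 20.5 (9.20 and 9.50). Proteasome genes were in 7 pairs, 3 with a peak, 42.9% (9.90 to 81.6%). Ftsj3/Psmc5 had 52.95 (22.4 and 30.7) and Psma7/Ss18l1 had 38.5 (17.1 and 20.8), while Mrpl32/Psma2 had none. The intervals of all these lists take in the share of all pairs.

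Replication-dependent histone genes stood lower. They were in 14 pairs, most of them a histone H2A and a histone H2B gene head to head, and 1 had a peak, 7.14% (0.181 to 33.9%). That was Hist2h2ac/Hist2h2be (chromosome 3), with the summit between the TSSs and a signal of 15.5 (6.70 in replicate 1 and 10.6 in replicate 2). Hist1h2ba/Hist1h2aa was the first by symbol without one. The upper bound of this interval lies below the 37.5% of all pairs, but these genes are near-identical copies of each other, which leaves the count uncertain. Of 5 pairs with cohesin or CTCF genes, among them Zfpl1/Cdca5 with the sororin gene, none had a peak, and the interval reaches 52.2%. Stag3 was counted in more than 1 of these annotated pairs, so they are not all separate promoters. No gene of the limb patterning list was in a divergent coding pair. The extracellular matrix list gave only Col4a4/Col4a3, without a peak.

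Head-to-head pairs known from textbooks were looked up by name, and 4 of those given here met the rule. Atm/Npat, the DNA damage kinase and a regulator of histone genes, start 307 bp apart. Their single peak had a signal of 61.05 (29.7 in replicate 1 and 31.2 in replicate 2) with the summit 3 bp from the midpoint and no motif. Col4a3/Col4a4 (TSSs 72 bp apart), Brca1/Nbr1 (194 bp) and Prkdc/Mcm4 (466 bp) had none. The nearest summit to the Brca1/Nbr1 midpoint was 921 bp away, with a signal of 49.1, too far from 1 of the TSSs. In 5 others the annotated first TSSs overlap and the distance is negative, at -21 bp for Col4a1/Col4a2, -163 bp for Surf1/Surf2, -111 bp for Hspd1/Hspe1, -271 bp for Paics/Ppat and -341 bp for Sirt3/Psmd13. Of these, Hspd1/Hspe1 had a summit of 30.2 at 209 bp from the midpoint and Col4a1/Col4a2 one of 20.03 at 263 bp. At Surf1/Surf2, Paics/Ppat and Sirt3/Psmd13 the nearest summits were 1930, 6720 and 14610 bp away. The TSSs of Tgds/Gpr180 are annotated 4403 bp apart.

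Where there was a peak near the distance limits of the rule, its signal was from 24.4 to 209.8, and the peaks just outside were above the upper quartile of the set. The pairs just inside the limit on the distance between TSSs were Zfyve26/Rad51b (978 bp), Asphd1/Sez6l2 (981 bp) and Btf3l4/Txndc12 (987 bp), all without a peak. Just outside were Gpr108/Trip10 (1009 bp), with a peak of 209.8, and Sgsm2/Tsr1 (1011 bp) and Dirc2/Hspbap1 (1019 bp) without one. The summits just inside the limit on the farther TSS were at B3galt6/Sdf4 (982 bp, signal 24.4), Fbxl6/Slc52a2 (983 bp, 125.4) and Dbf4/Slc25a40 (994 bp, 26.4). Just outside were Atp6v1a/Naa50 (1003 bp, 101.7), Fig4/Ak9 (1007 bp, 100.4) and Cdc26/Prpf4 (1008 bp, 110.1).

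The median distance to the nearest other CTCF peak was between that of single promoters and that of all peaks. The nearest other summit was at a median of 6916.5 bp (quartiles 1077.75 to 17569 bp), against 4993 bp (1127.5 to 15488 bp) at single promoters and 7688.5 bp over all peaks. Within 100 kb there was a median of 8 other summits for the set, 8 for single promoters and 7 for all peaks. By chromosome, the share of pairs with a peak ranged from 27.0% on chromosome 13 (10 of 37) to 52.2% on chromosome 1 (24 of 46).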

How the data were processed

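CTCF ChIP-seq peaks of 2 libraries were analysed from 4 of the 5 deposited lists on mm10: the optimal and conservative lists thresholded by irreproducible discovery rate (IDR) and the full list of each replicate. Per the notes deposited with each library, the IDR lists derive from both replicate lists and the pooled list. The signal of a peak is the value the authors deposited, never negative and on the scale of its own list; its normalization, the aligner, the peak caller, the control and the IDR threshold were not given in the sources used here. Lists hold no read counts, so the read depth is unknown. Each replicate list holds 300000 peaks. Peaks were compared with GENCODE M21 gene models and the RefSeq copy of GRCm38.p6, which supplied all sequences, on 19 autosomes. Replicate signal was that of the nearest summit within 100 bp. Python 3.11.15, numpy 2.4.6 and scipy 1.17.1 were used, and pair finding, peak classes, matching and motif search were tested on simulated data. The CTCF matrix took 10 rounds of refinement on the 1000 strongest peaks of autosomes with an odd number. The set and the gene lists were chosen with earlier results of these data known; 1 protein that only binds type IV collagen was taken off the matrix list. The text names the 10 strongest and 4 weakest peaks, pairs with 3 or more peaks (at most 4 pairs), the 3 largest and 3 smallest ratios between replicates, for each gene list the 2 pairs with the strongest peak and the first by symbol without one, and textbook pairs; a few of the items this rule names are not reported here. Alternatives changed the peak list, the TSSs, both distance limits, the single genes, the motif score, the matching distance and the libraries, and, chosen after seeing the data, kept CpG-rich promoters alone.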

Additional observations from a re-analysis of the deposited data

How the results depend on the processing

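The share of pairs with a peak stayed above that of single genes under all alternatives run except with CpG-rich promoters alone. In that alternative, added after seeing the data, pairs had 39.4% and single genes 41.1%, with a smaller window for pairs. There the motif share of single promoters was 54.6% and the ratio of medians (pairs over single genes) 0.800. With the stronger 50% of peaks, pairs had 12.8% and single genes 12.1%, summits between the TSSs 28.7%, motif shares 72.3% for pairs and 75.9% for single promoters, peaks in both replicates 100% and the ratio 0.804. With summits within 500 bp, pairs had 28.6%, single genes 19.1%, the single motif share was 55.4% and the ratio 0.630. With the starts of all transcripts, single genes had 32.2%, their motif share was 62.3% and the ratio 0.813. The conservative list gave single genes 24.3% and a ratio of 0.662. The ratio was 0.713 with TSSs at most 500 bp apart and 0.822 with overlapping 5′ ends added. Leaving out single genes with an opposite-strand start gave 23.8%. The 1% motif score gave 11.4% for pairs and 27.6% for single promoters. Leaving out 1 replicate gave a ratio of 0.714 to 0.728, and a motif share of single promoters of 55.2 to 57.1%. The ratio stayed below 1 and the motif share of pairs below that of single promoters in all of these; the cause of the moves was not tested. No paired analysis was possible because there is 1 group. Without read counts, the depth behind a weak or missing peak is unknown, and 2 libraries of 1 pool give no spread between animals.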
